A study of Mus musculus with 72 samples.

Results

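The step from day 2 to day 3 of a neuroectodermal differentiation was described in wild-type mouse embryonic stem cells, the day on which all-trans retinoic acid was present. The samples were chosen by their labels alone: every sample labelled wild type and collected on day 2 or day 3, which is 6 of the 18 biological samples of a study of Nup133, a subunit of the nuclear pore. Each was sequenced as 4 technical files, so 24 of 72 files were used, and the 4 files of a sample were summed. The 6 samples form 3 series, each with a day 2 and a day 3 sample: HM1 replicate 1, HM1 replicate 2 and line 1A4. HM1 and 1A4 are both Nup133+/+ and XY with 40 chromosomes. Line 1A4 was derived from a blastocyst and is Sox1gfp/+, so 1 allele of Sox1 carries a gfp insertion. All cells had been kept in serum and LIF on mitomycin-treated DR4 fibroblasts, were plated briefly to remove these feeders, and were then grown in N2B27 medium on gelatin. At day 2 they were collected, or the medium was replaced by medium with 1 µM all-trans retinoic acid for 24 h until day 3. No day 3 sample without retinoic acid was analysed here, so the retinoic acid, the additional day and the change of medium cannot be told apart.

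Retinoic acid is made from vitamin A and enters the nucleus, where it binds the receptors RAR alpha, beta and gamma. These sit on DNA as dimers with RXR receptors, and the ligand turns their bound genes from repressed to active. In the vertebrate embryo retinoic acid made by the trunk mesoderm reaches the hindbrain and spinal cord, where it switches on Hox genes that set position along the body axis, while the forebrain is kept free of it by CYP26 enzymes. In embryonic stem cells it is a common agent for leaving pluripotency and for obtaining neural progenitors of posterior character.

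The day 2 samples held from 41.6 to 48.3 M gene counts and the day 3 samples from 25.8 to 34.6 M. In a principal component analysis the first component held 78.6% of the variance and separated the days, and the second held 10.8% and set line 1A4 apart from HM1. Of 16920 genes tested, 9833 (58.1%) were called at an adjusted p below 0.05 (edgeR quasi-likelihood test with the series as a block), 4923 higher (29.1%) and 4910 lower (29.0%). In a fit of all 18 samples 3988 genes were called, and without HM1 replicate 2 the number was 6442. Since more than every other gene passed, the gene groups below are counted at a called change of at least 2-fold, which 2808 genes met (16.6%): 1814 were higher at day 3 (10.7%) and 994 lower (5.87%). The shares of 10.7% and 5.87% are the background for the counts of each list below. The lists were chosen with earlier results of these data known. Of the 2808 genes 2312 were also called in the fit of all 18 samples. The log2 step had the same sign in the 3 series in 2806 of the 2808. At least a 10-fold change was seen in 195 genes that rose and 55 that fell. The median log2 fold change of all genes tested was 0.00. The scaling between libraries (TMM) sets most genes near no change, so a shift in total RNA was not measured. The CPM values (counts scaled to a library total of 1e+06) of the 3 day 3 samples and the 3 day 2 samples did not overlap in 10078 genes (59.6%). Values are CPM in the order HM1 replicate 1, HM1 replicate 2 and line 1A4, means are given with the SD (n = 3), and log2 fold changes with their SE. P-values measure the spread of the day 2 to day 3 step between these 3 series, of which 2 are the same line. The variance of each gene was moderated with that of other genes (2 residual and a median of 6.25 prior degrees of freedom).

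**Figure D1:**
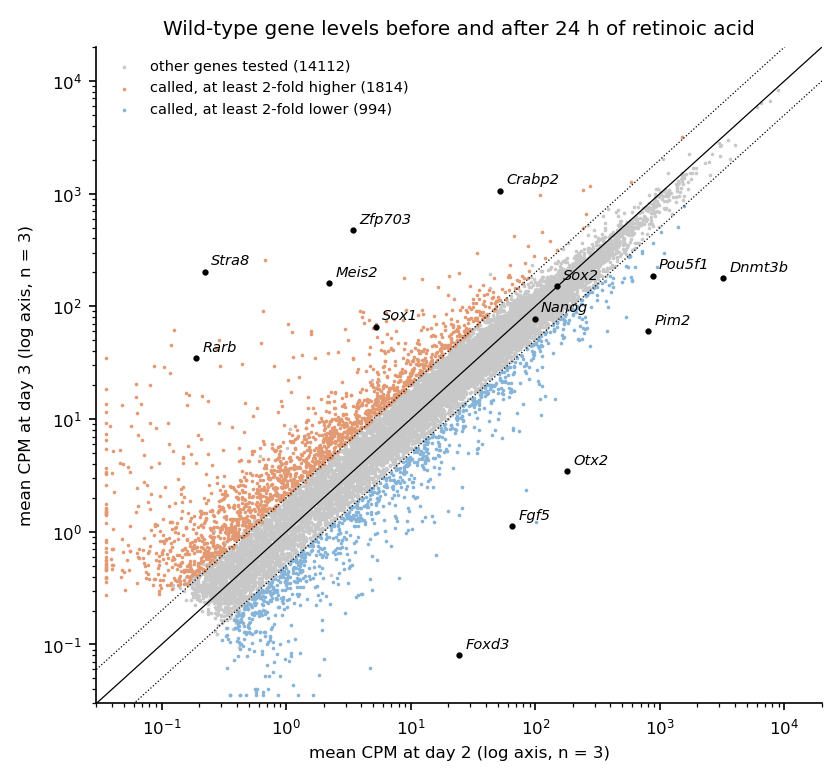
Mean level of each tested gene in CPM at day 2 (x axis) and day 3 (y axis), both log axes, n = 3 samples a day. Orange points are the 1814 genes that rose at least 2-fold and blue points the 994 that fell at least 2-fold; dotted lines mark a 2-fold difference, and genes without a count on a day are drawn at the edge. Stra8 and Zfp703 lie far above the diagonal, Otx2, Fgf5 and Foxd3 far below it, and Sox2 on it.

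Genes that retinoic acid is known to induce rose. All 24 tested members of a list of 25 textbook targets rose at least 2-fold (10.7% of all genes did), with a median log2 fold change of 5.68. This list was chosen with earlier results of these data known, so the count is a description and no independent check. Ripply2 was too low to be tested. Stra8, the gene that starts meiosis in germ cells and was first found as a retinoic acid response gene, was at 0.147, 0.433 and 0.0867 CPM at day 2 and at 232, 270 and 108 CPM at day 3. The day 3 value of line 1A4 was the lowest of the 3, and the days were far apart in every series. The log2 fold change was 9.84 ± 0.15 (adjusted p = 8.6e-09). Stra8 was counted on a transcript of 10 exons (chromosome 6, 34920163 to 34939344, GRCm38).

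Zfp703, a zinc finger repressor, went from 3.44 ± 0.24 to 474 ± 42 CPM (log2 fold change 7.10 ± 0.08). Tshz1, a teashirt family factor of the trunk, went from 1.03 ± 0.19 to 70.3 ± 5.2 CPM. These 2 genes moved by almost the same amount in the 3 series. The smallest change on the list was that of Ret, a receptor tyrosine kinase of enteric neurons and kidney, from 3.402 ± 0.61 to 7.99 ± 0.53 CPM (2.37-fold). Cdx1, a homeobox gene of the posterior embryo, was at 0.0489, 0.0254 and 0 CPM at day 2, which is 3 counts in all. At day 3 it was at 8.26, 7.92 and 24.7 CPM, so line 1A4 stood above both HM1 samples. The ratio of the days was 596, with a counting interval of 203 to 2891 (exact 95% limits, counting error only).

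Genes for the clearance, binding and uptake of retinoids rose. Of 15 tested genes of retinoid metabolism and binding (20 listed), 7 rose at least 2-fold and none fell by that much. Cyp26a1, the main enzyme that degrades retinoic acid, was at 5.26, 5.83 and 4.59 CPM at day 2 and at 64.4, 68.7 and 74.0 CPM at day 3. The 3 series nearly coincided on both days, and the log2 fold change was 3.73 ± 0.10 (adjusted p = 1.1e-07). Cyp26b1, a second enzyme of the same family, was at 0.562, 0.585 and 0.607 CPM and then at 11.1, 15.5 and 10.7 CPM (log2 fold change 4.38 ± 0.17). The third, Cyp26c1, was too low to be tested. Dhrs3, which turns retinal back into retinol and so lowers the supply, went from 1.60 ± 0.41 to 60.4 ± 6.7 CPM (38.2-fold).

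Crabp2, which carries retinoic acid to its receptors, was at 48.8, 49.3 and 57.3 CPM at day 2 and at 1077, 796 and 1318 CPM at day 3 (20.2-fold, adjusted p = 2e-07). Its paralogue Crabp1 moved far less, from 15.8 ± 2.1 to 23.5 ± 3.1 CPM (log2 fold change 0.58 ± 0.09, adjusted p = 0.0009, and 0.18 in the fit of all 18 samples). Stra6, the receptor through which cells take up retinol, was at 3.94, 3.94 and 4.25 CPM and then at 67.8, 74.5 and 100.1 CPM (19.8-fold).

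None of the enzymes that make retinoic acid rose at least 2-fold. Aldh1a2, which makes it from retinal in the embryo's trunk, was at 1.74, 1.60 and 1.32 CPM at day 2 and at 2.58, 2.08 and 1.61 CPM at day 3. The ranges overlapped and the adjusted p was 0.085. Rdh10, which makes retinal, went from 8.86 ± 0.72 to 6.84 ± 1.01 CPM (log2 fold change -0.38 ± 0.11, adjusted p = 0.017); its call was lost without either HM1 series (adjusted p = 0.076 and 0.13) and in the fit of all 18 samples (0.38). Adh5, Fabp5 and Rdh11 were the other members called lower, by less than 2-fold. Fabp5 lost its call without HM1 replicate 2 (adjusted p = 0.071), and Rdh11 without HM1 replicate 1 or 2 (0.053 and 0.12).

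**Figure D2:**
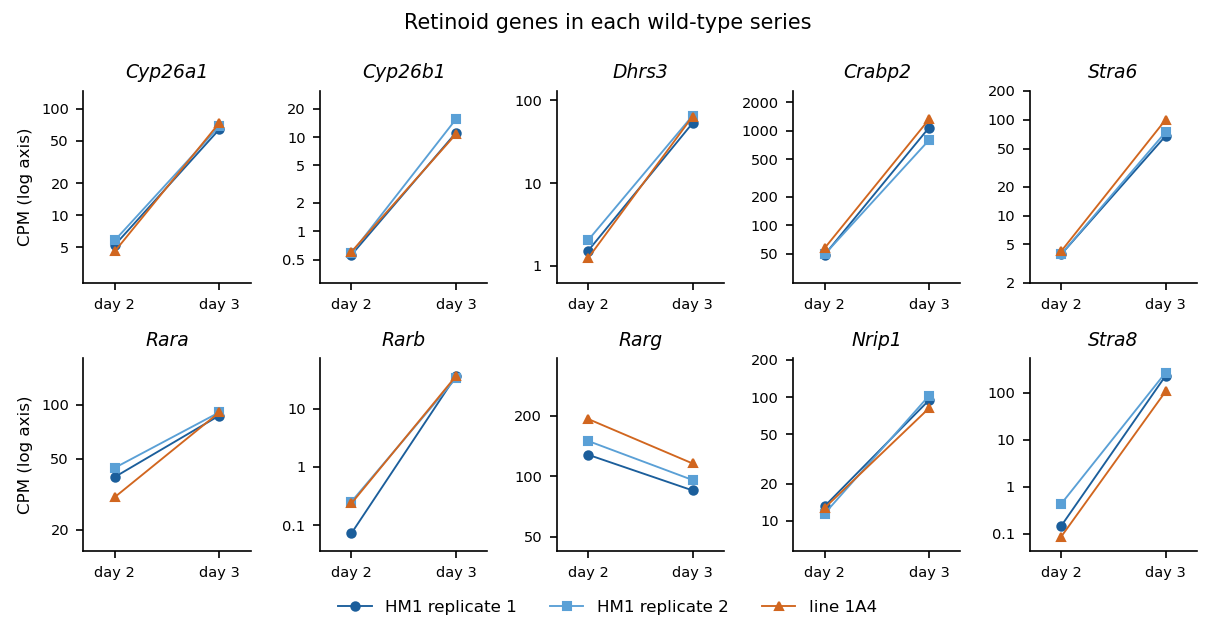
CPM of 10 retinoid genes at day 2 and day 3 (log axes, each with its own range), with 1 line for each of the 3 wild-type series. Cyp26a1, Cyp26b1, Dhrs3, Crabp2, Stra6, Rarb, Nrip1 and Stra8 rise in every series, Rara rises by 2.38-fold and Rarg falls.

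The 3 retinoic acid receptors moved differently. Rarb, the receptor gene long used as a readout of the signal, was at 0.0734, 0.255 and 0.238 CPM at day 2 and at 36.0, 33.0 and 35.8 CPM at day 3 (log2 fold change 7.50 ± 0.20, adjusted p = 1.1e-07). Rara was at 39.6, 44.5 and 30.5 CPM and then at 87.3, 91.0 and 91.0 CPM (2.38-fold). Rarg, the most abundant of the 3 at day 2 when set per length (57.9 CPM per kb, against 11.3 for Rara and 0.0607 for Rarb), fell in each series, from 157 ± 33 to 99.1 ± 15.6 CPM (log2 fold change -0.66 ± 0.06, adjusted p = 3.7e-05, and 0.07 in the fit of all 18 samples). At day 3 the levels per length were 36.5 for Rarg, 26.5 for Rara and 11.2 CPM per kb for Rarb. Of 17 receptors and coregulators 5 rose and 1 fell at least 2-fold. Nrip1, a corepressor that binds the ligand-bound receptor, rose from 12.4 ± 0.9 to 92.9 ± 10.8 CPM, and Nr2f1, an orphan receptor of the developing nervous system, from 0.171 ± 0.082 to 4.86 ± 1.53 CPM. Rxrg was the member that fell, from 5.43 ± 0.61 to 1.89 ± 0.37 CPM. The corepressor Ncor1 was not called.

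Receptor dimers bind direct repeats of a hexamer, and the spacing of 5 bases is the classical element of Rarb and Cyp26a1. The RefSeq promoter windows (GRCm38.p6, 250 bases before to 50 after the start) of 11889 tested genes were searched on both strands for 4 hexamers, in any pair in the same orientation with 5 bases between them. The first hexamer was AGGTCA, the consensus. Another was AGTTCA, which differs from it inside. The remaining ones begin with a different letter and read GGGTCA for the former kind and GGTTCA for the latter. A match was present in 6 of the 11889 windows (0.0505%), in 3 of the 1243 windows of genes that rose at least 2-fold (0.241%) and in 0 of the 665 of genes that fell by that much. The 3 were Rarb, Cyp26a1 and Prokr2, and the other 3 were Cfap45, Syndig1 and Blvrb. Since the element is known from Rarb and Cyp26a1, their matches were given in advance and the higher share among risers is no independent result. With spacing 2 a match was in 13 windows (0.109%) and in 4 of the genes that rose (0.322%). With spacing 1 the share was lower among the risers, with 33 windows (0.278%) and 1 riser (0.0805%). Of 53 genes on the retinoid, receptor and target lists 39 had a window, and Rarb and Cyp26a1 were the members with a match at spacing 5. Their 120 bases before the RefSeq start are shown because both genes were called higher and hold a match. Capitals mark the repeat with its spacer, in the orientation of the gene. The Rarb stretch is chr14:16575477-16575596 on the minus strand, and its repeat lies 53 to 37 bases before the RefSeq start. The counted Rarb transcript begins further upstream, at 16575543, so the repeat (16575513 to 16575529) lies within its span. The Cyp26a1 stretch is chr19:37697688-37697807 on the plus strand; its repeat lies 32 to 16 bases before the start and reads AGTTCA on the opposite strand.
Rarb: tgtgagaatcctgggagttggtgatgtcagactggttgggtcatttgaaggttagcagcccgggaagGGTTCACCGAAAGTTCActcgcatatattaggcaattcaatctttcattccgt
Cyp26a1: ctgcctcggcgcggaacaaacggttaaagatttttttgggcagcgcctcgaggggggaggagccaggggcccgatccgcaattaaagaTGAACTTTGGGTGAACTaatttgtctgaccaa
A match is a description of the letters in the window, and binding was not measured.

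Hox genes encode the homeodomain factors that specify position along the body, and their order on the chromosome from paralogue group 1 to 13 follows their order from head to tail. All 15 genes of paralogue groups 1 to 5 rose at least 2-fold, with a median log2 fold change of 7.92 (7.73 with the 3 genes that had at most 3 counts at day 2 set to a floor of 3 counts a sample). Of 24 genes of groups 6 to 13, 8 could be tested and 6 rose: Hoxb6, Hoxb7, Hoxb8, Hoxb9, Hoxa7 and Hoxd8. Of the 12 genes of groups 10 to 13 only 2 could be tested, and neither was called. In the fit of all 18 samples 18 genes of groups 6 to 13 were tested and 8 rose at least 2-fold. At day 2 no Hox gene reached a mean of 1 CPM, and at day 3 20 of the 39 did.

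Per length, the day 3 mean was 18.04 CPM per kb for Hoxb2, 17.8 for Hoxb4, 14.0 for Hoxb1 and 10.1 CPM per kb for Hoxc4. The ranges of Hoxb2, Hoxb4 and Hoxb1 overlapped, and Hoxc4 was below Hoxb2 and Hoxb4 in each sample. The noncoding RNA Hotairm1 of the Hoxa cluster rose from 0.127 ± 0.028 to 61.6 ± 12.4 CPM. Whether the counting used strand is not given in the sources used here, so the reads of Hotairm1 or Hoxaas2 and of the genes they overlap on the opposite strand cannot be told apart.

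Within the Hoxb cluster the day 3 level fell off toward the higher paralogue groups. Hoxb4 was at 0.147, 0.102 and 0.108 CPM at day 2 and at 42.7, 40.3 and 54.3 CPM at day 3. Hoxb5 held 3 counts in all at day 2 and was at 14.9, 16.4 and 23.7 CPM at day 3, a ratio of 781 (counting interval 267 to 3789). Hoxb6 held 2 counts at day 2 and was at 6.46 ± 2.69 CPM at day 3, and Hoxb9 went from 0.376 to 2.49 ± 0.92 CPM. Hoxb13 was too low to be tested, at 0 and 0.193 CPM on average. In the Hoxc cluster Hoxc4 and Hoxc5 rose to 20.0 ± 2.8 and 7.43 ± 4.21 CPM, while Hoxc6, Hoxc8 and Hoxc9 were at 0.124, 0.119 and 0.0404 CPM at day 3 and too low to be tested. The annotated Hoxc5 gene overlaps Hoxc6, Hoxc8 and Hoxc9 on the same strand, so the counts of these genes are uncertain. The same holds for Hoxa3 with Hoxa4, Hoxa5 and Hoxa6, and for Hoxd3 with Hoxd4. Hoxc13 and Hoxd13, at the far end of their clusters, were at 0.951 and 0.580 CPM at day 2 and at 0.818 and 0.916 CPM at day 3 and were not called (adjusted p = 0.79 and 0.092).

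Line 1A4 had the highest day 3 value in each of the Hoxb genes from Hoxb1 to Hoxb9. Hoxb1, which marks rhombomere 4 of the hindbrain, was at 0.0978, 0.153 and 0.0650 CPM at day 2 and at 13.3, 17.0 and 57.2 CPM at day 3. Both HM1 samples were close together and 1A4 was above both, with a log2 step of 8.91 against 6.46 and 6.37. Hoxb8 took a log2 step of 6.04 in 1A4 and of 4.45 and 3.44 in HM1. With 1 series of line 1A4 this difference between the lines was not tested.

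**Figure D3:**
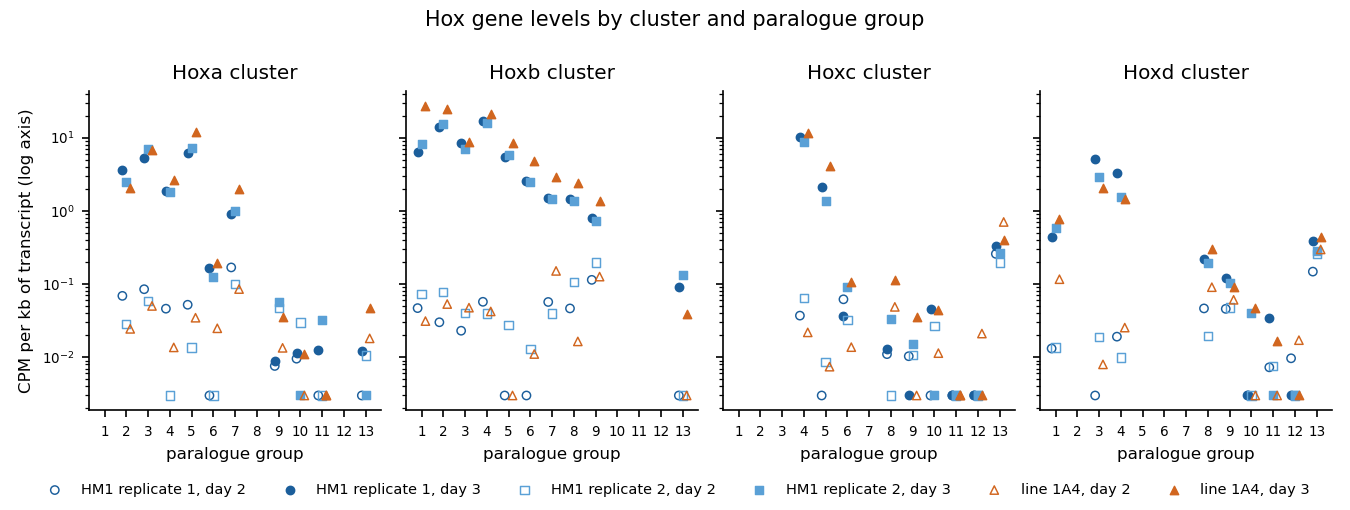
Levels of Hox genes in CPM per kb of transcript (log axis) by cluster and paralogue group, with open symbols for day 2 and filled symbols for day 3 in each of the 3 series; samples without a count are drawn at the bottom. Filled symbols lie far above open ones in groups 1 to 5, less so in groups 6 to 9, and together with them in groups 10 to 13.

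Hox proteins bind DNA with cofactors of the Pbx, Meis and Pknox families, and these rose as well: 6 of 9 by at least 2-fold. Meis1 was at 0.636, 0.789 and 0.455 CPM at day 2 and at 54.0, 47.4 and 40.0 CPM at day 3, and Meis2 was at 2.76, 2.65 and 1.26 CPM and then at 150, 154 and 180 CPM. Pbx2 rose 2.94-fold and Pknox2 21.7-fold, and Meis3 rose as well. Pknox1 fell from 37.5 ± 2.1 to 20.6 ± 2.9 CPM, and Pbx3 and Pbx4 were not called.

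The factors of the anterior brain gave no common direction: 5 of 14 rose and 4 fell at least 2-fold, and 7 of the 21 listed were too low to test. Their median log2 fold change depended on the filter. It was 0.23 here and 2.27 when only genes with at least 1 CPM in 3 samples were tested. Otx2, which is needed for the anterior epiblast and the fore- and midbrain, was at 167, 195 and 176 CPM at day 2 and at 2.87, 3.87 and 3.58 CPM at day 3. Every series lost nearly all of it (log2 fold change -5.71 ± 0.08, adjusted p = 5.5e-09, 52.2-fold lower). Its counted transcript spans 4 exons (chromosome 14, 48657679 to 48665106), and Otx2os1 overlaps it on the other strand. Otx1 and Six3 fell from 0.740 and 0.417 to 0.116 and 0.106 CPM. The risers were at low levels: Lhx2 reached 2.27 ± 0.48 CPM and Emx2 1.47 ± 0.25 CPM.

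Among 26 tested factors of hindbrain and spinal cord (34 listed), 12 rose and 1 fell at least 2-fold, with a median log2 fold change of 1.21. Irx1, an Iroquois factor, went from 0.236 ± 0.115 to 14.4 ± 1.3 CPM. The dorsal factors Pax3 and Pax7 reached 1.85 ± 0.63 and 1.15 ± 0.38 CPM from below 0.1 CPM. Gsx1 was the member that fell, from 0.571 ± 0.165 to 0.0381 ± 0.0330 CPM. Gbx2, a factor of the anterior hindbrain, was at 7.56, 5.37 and 1.86 CPM and then at 15.1, 24.2 and 27.1 CPM. The days did not overlap, but the series differed in the size of the step (log2 1.00, 2.16 and 3.82) and the adjusted p was 0.053. Gbx2 stayed not called in 7 of 15 alternatives, with an adjusted p of up to 0.2. Among those that called it, the adjusted p was 0.0043 with DESeq2, 0.0071 with no replicate block and 0.046 in the fit of all 18 samples. Of 14 tested caudal epiblast factors, which mark the posterior growth zone, 5 rose and 2 fell at least 2-fold, and 5 fell without line 1A4. T, the streak gene Brachyury, fell from 11.2 ± 5.2 to 4.18 ± 0.48 CPM, and Cdx2 was at 0.783, 0.992 and 0.672 CPM and then at 0.261, 0.329 and 0.987 CPM (adjusted p = 0.23).

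Neural progenitor genes mostly rose: 15 of 25 tested by at least 2-fold, with 3 that fell. Sox1, the earliest marker restricted to neuroectoderm, was at 8.10, 5.98 and 1.71 CPM at day 2 and at 86.8, 82.9 and 28.3 CPM at day 3. Line 1A4, with gfp in 1 allele, was lowest on both days. The fold was similar in the series, and the log2 fold change was 3.71 ± 0.12 (adjusted p = 2.2e-07). Pax6, a factor of dorsal and intermediate progenitors, was at 6.55, 6.26 and 5.78 CPM and then at 45.8, 26.8 and 25.4 CPM (5.11-fold). Sox2, which is shared by pluripotent and neural cells, was at 155, 170 and 123 CPM and then at 155, 169 and 126 CPM, so each series kept its value (log2 fold change 0.01 ± 0.05). Sox3 rose from 20.9 ± 3.8 to 48.1 ± 2.7 CPM. Pou3f2 and Hes5 rose from 0.187 and 0.539 CPM to 4.05 ± 2.68 and 10.6 ± 7.5 CPM. Zic2 and Zic5, zinc finger genes shared with the primed epiblast, were among the members that fell; Zic5 went from 103 ± 4 to 27.0 ± 2.3 CPM.

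Proneural and early neuron genes split. Of 30 tested, 12 rose and 2 fell at least 2-fold. Neurog1 and Neurod4, basic helix-loop-helix factors of early neurons, rose to 1.49 ± 0.86 and 3.89 ± 2.36 CPM from 0.0622 and 0.253 CPM, and line 1A4 was lowest in both at day 3 (0.564 and 1.38 CPM). Gap43, a growth cone protein, rose from 11.5 ± 1.1 to 50.2 ± 23.1 CPM. Neurog2 was too low to be tested. Tubb3 and Elavl3, which are used as neuron markers, were at 94.9 ± 6.1 and 25.7 ± 0.2 CPM at day 2 and fell to 39.9 ± 10.7 and 10.6 ± 1.0 CPM. Both were above 1 CPM in every sample before the retinoic acid. In bulk RNA, fewer cells of a type and less RNA per cell cannot be told apart.

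**Figure D4:**
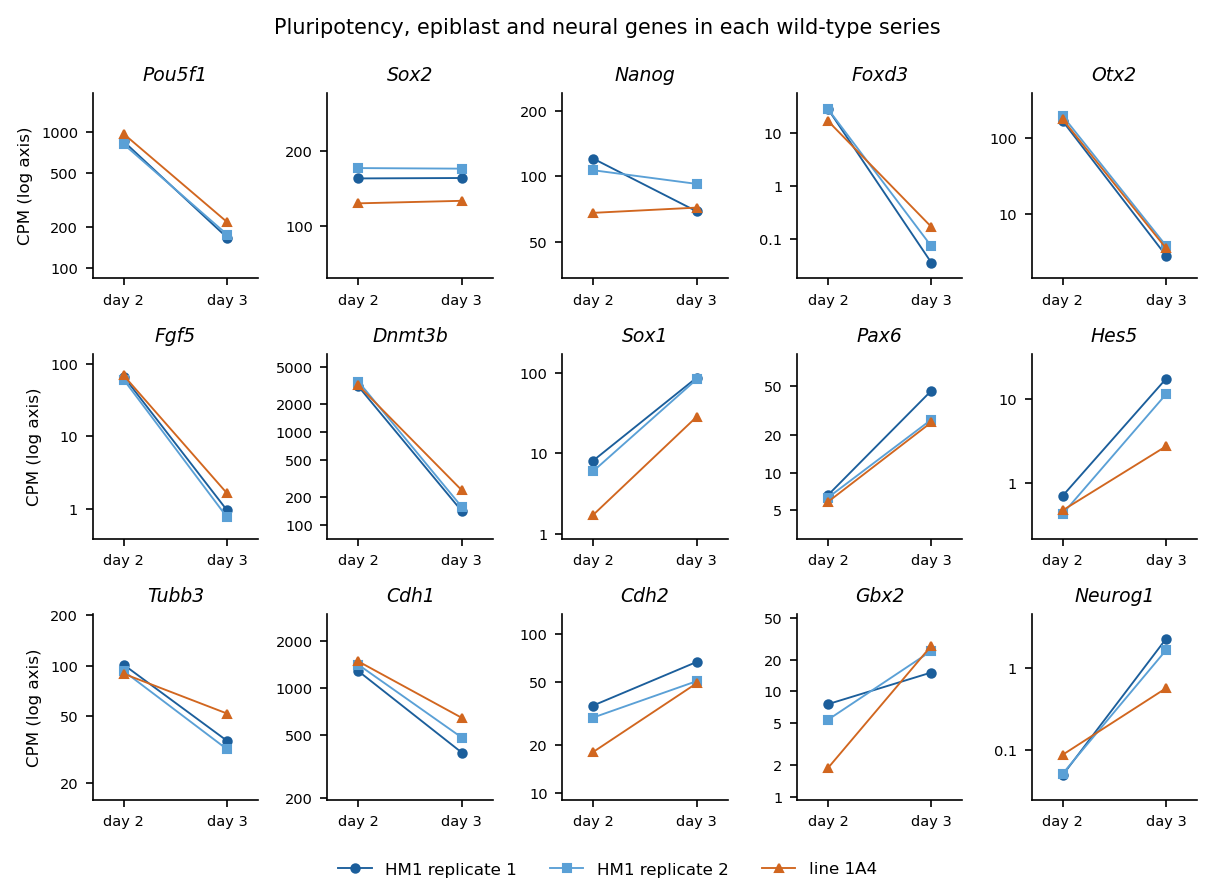
CPM of 15 pluripotency, epiblast, neural and adhesion genes at day 2 and day 3 (log axes, each with its own range), with 1 line for each wild-type series. Pou5f1, Foxd3, Otx2, Fgf5, Dnmt3b, Tubb3 and Cdh1 fall and Sox1, Pax6, Hes5, Cdh2 and Neurog1 rise in every series. Sox2 is level, Nanog falls in HM1 by amounts that differ and is nearly level in 1A4, and Gbx2 is higher at day 3 by amounts that differ. Foxd3 in HM1 replicate 1 at day 3, listed at 0, is drawn at a small value set for the log axis.

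Pluripotency genes fell to different degrees. Of 17 general factors 10 fell at least 2-fold and none rose (5.87% of all genes fell by that much), with a median log2 fold change of -1.12. Pou5f1, which encodes OCT4, was at 851, 813 and 968 CPM at day 2 and at 167, 176 and 218 CPM at day 3 (log2 fold change -2.24 ± 0.07, adjusted p = 1.7e-07). Its 5 exons span 35506018 to 35510772 of chromosome 17. Foxd3, a forkhead repressor of pluripotent and neural crest cells, was at 28.3, 28.3 and 16.8 CPM at day 2 and at 0, 0.0730 and 0.169 CPM at day 3, which is 8 counts in all. It had the largest fall of the genes named (log2 fold change -8.13 ± 0.37). L1td1 fell from 538 ± 7 to 81.2 ± 33.7 CPM and Utf1 from 273 ± 13 to 44.5 ± 14.3 CPM (adjusted p = 0.00036, and 0.063 without line 1A4). Lin28a, an RNA-binding protein that blocks let-7 microRNAs, was at 712 ± 51 and 694 ± 92 CPM.

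The naive factors, which mark the earliest epiblast, changed less: 5 of 22 fell and 1 rose at least 2-fold. Fgf4 and Tdh, a metabolic enzyme of mouse embryonic stem cells, fell 10.2-fold and 9.66-fold. Nanog was at 121, 107 and 68.1 CPM and then at 69.2, 92.5 and 71.96 CPM, so the ranges overlapped (adjusted p = 0.17). Esrrb and Zfp42 fell by less than 2-fold, to 51.0 ± 15.6 and 35.7 ± 7.7 CPM. On a scale set over all 18 samples, the day 0 means were far above those of day 2: Esrrb was at 684 ± 26, Zfp42 at 614 ± 80 and Nanog at 602 ± 140 CPM in the wild-type day 0 samples, and at 71.6, 58.6 and 90.7 CPM at day 2. Tet2, a 5-methylcytosine oxidase, was the riser, from 17.3 ± 1.8 to 42.3 ± 4.2 CPM.

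The formative and primed epiblast genes, which mark the state after naive pluripotency, fell most as a group: 16 of 23 by at least 2-fold, with 2 risers and a median log2 fold change of -1.63. Fgf5 was at 66.1, 60.1 and 68.5 CPM at day 2 and at 0.956, 0.766 and 1.64 CPM at day 3 (57.4-fold lower, adjusted p = 9.7e-08). Pou3f1 fell from 106 ± 17 to 21.7 ± 8.7 CPM (adjusted p = 0.012, and 0.075 and 0.054 without HM1 replicate 1 or 2), Lef1 from 74.1 ± 24.3 to 7.83 ± 0.76 CPM and Pim2, a survival kinase, from 804 ± 208 to 60.1 ± 15.1 CPM. Sox3 and Fzd2 were the risers. On the scale of all 18 samples Fgf5 had been at 17.0 ± 7.0 CPM at day 0, Otx2 at 77.2 ± 21.6 CPM and Dnmt3b at 376 ± 106 CPM, each below its day 2 level of 59.8, 165 and 2971 CPM. The means of these 3 genes were higher at day 2 than on day 0 or day 3; day 0 was not tested here.

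The DNA methylation enzymes include part of that state. Dnmt3b, a de novo methyltransferase, was at 3070, 3460 and 3147 CPM at day 2, among the most abundant messages, and at 141, 157 and 236 CPM at day 3 (18.6-fold lower, adjusted p = 1.2e-05). Dnmt3a fell from 500 ± 48 to 163 ± 6 CPM and Dnmt3l, their catalytically inactive partner, from 88.8 ± 17.7 to 22.7 ± 4.7 CPM. The maintenance enzyme Dnmt1 and its guide Uhrf1 were not called. Tet1 fell from 315 ± 50 to 127 ± 3 CPM (adjusted p = 2.5e-05, and 0.064 in the fit of all 18 samples), while Tet2 rose 2.44-fold and Tet3 1.45-fold (adjusted p = 0.32 for Tet3 in that fit).

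The mesendoderm and streak genes, which mark the alternative fate of the epiblast, fell in 7 of 17 and rose in 2 at least 2-fold. Cer1, a secreted antagonist of Nodal, was at 5.94, 5.73 and 2.58 CPM and then at 0.0579, 0.0730 and 0.0564 CPM. Eomes fell from 7.06 ± 0.98 to 1.99 ± 0.31 CPM, and Foxa2, shared by endoderm and floor plate, rose from 3.10 ± 1.08 to 8.81 ± 0.80 CPM. Tdgf1, the Nodal coreceptor, fell 5.29-fold. Nodal was at 34.7, 28.7 and 26.0 CPM and then at 26.4, 42.2 and 44.0 CPM (adjusted p = 0.32, and 0.0002 without HM1 replicate 1). Of the 17 tested Nodal pathway genes 2 rose and 2 fell at least 2-fold, beside 10.7% and 5.87% of all genes.

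In the FGF pathway 10 of 30 genes fell and 7 rose at least 2-fold, with ligands and ERK feedback genes in both directions. The ligands Fgf5, Fgf4 and Fgf15 fell (Fgf15 from 24.5 ± 1.5 to 1.39 ± 0.30 CPM), as did Etv5, a transcription factor induced by ERK, from 250 ± 28 to 63.1 ± 16.2 CPM, and Spry4 and Spry2, inhibitors that ERK induces, by 6.27-fold and 2.60-fold. The ligand gene Fgf10 rose from 0.666 ± 0.365 to 3.64 ± 0.63 CPM, and Dusp5, a phosphatase of nuclear ERK, from 9.87 ± 2.00 to 30.8 ± 8.8 CPM. Dusp6, another ERK phosphatase, was at 105 ± 7 and 109 ± 33 CPM. Fgfr3 was at 3.50, 2.95 and 2.92 CPM and then at 57.5, 40.9 and 51.4 CPM (15.9-fold), Fgfr2 rose 5.14-fold, and Flrt3, a membrane partner of FGF receptors, rose 10.4-fold. Fos, an immediate early gene, rose from 4.59 ± 0.57 to 37.8 ± 21.6 CPM, with 62.2 CPM in HM1 replicate 2 (adjusted p = 0.00028, and 0.12 without line 1A4).

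The other signalling lists had members in both directions, beside 10.7% of all genes that rose and 5.87% that fell at least 2-fold. In the BMP list 7 of 25 rose and 1 fell at least 2-fold; Id1 and Id2, direct targets of the pathway, rose 7.68-fold and 4.81-fold and its inhibitor Smad6 5.69-fold, while Bmp4 was not called. In the Wnt list 11 of 41 rose and 7 fell at least 2-fold; Sfrp5, a secreted antagonist, was at 1.15, 1.02 and 1.15 CPM and then at 73.3, 49.2 and 54.5 CPM, Wnt7b and Wnt5a rose, and Lef1, Dkk1 and Wnt3 fell (adjusted p = 0.086 for Wnt3 in the fit of all 18 samples). In the Notch list 7 of 24 rose and 3 fell; Hes5, Hes1, Lfng and the ligand Dll1 rose, and Dtx1, Hes6 and Dll3 fell (1 fell without HM1 replicate 1, and the adjusted p of Dll3 was 0.076 in the fit of all 18 samples). Hes5 was at 0.709, 0.433 and 0.477 CPM and then at 17.6, 11.5 and 2.76 CPM, so line 1A4 took the smallest step. In the Hedgehog list 4 of 16 rose and 1 fell; the coreceptor Gas1 rose from 6.504 ± 1.80 to 23.6 ± 2.4 CPM. Shh was not called.

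Guidance and adhesion genes held some of the largest changes. Of 35 tested ephrin and guidance genes 12 rose and 5 fell at least 2-fold. Plxna2, a semaphorin receptor, was at 9.71, 9.44 and 7.37 CPM and then at 219, 169 and 143 CPM (19.9-fold). Efnb1, which sets boundaries between cell groups, was at 6.09, 4.25 and 2.06 CPM and then at 87.5, 76.6 and 102 CPM. Robo2, a Slit receptor, was at 0.538, 1.27 and 0.607 CPM and then at 46.6, 23.9 and 17.8 CPM (adjusted p = 0.00034, and 0.09 without line 1A4), and its ligand gene Slit1 rose 7.34-fold. Sema6a, Epha2, Slit3, Epha1 and Unc5b fell; Epha2 went from 64.1 ± 5.0 to 18.3 ± 4.0 CPM (adjusted p = 0.12 without line 1A4). Epha1 lost its call in the fit of all 18 samples (adjusted p = 0.086) and with no filter on low counts (0.056).

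Cdh1 and Cdh3 fell and Cdh2 rose. Cdh1, the E-cadherin of pluripotent epithelium, was at 1284, 1411 and 1482 CPM at day 2 and at 389, 485 and 648 CPM at day 3 (2.80-fold lower, adjusted p = 1.3e-05). Cdh2, the N-cadherin of neural tissue, was at 35.5, 29.8 and 18.1 CPM and then at 66.8, 50.6 and 49.0 CPM (2.05-fold, adjusted p = 0.00046, and 0.061 in the fit of all 18 samples). Cdh3, the P-cadherin, fell from 91.8 ± 11.8 to 33.2 ± 6.6 CPM. Per length Cdh1 was still above Cdh2 at day 3, at 114 against 11.5 CPM per kb. Cdh6, a cadherin of hindbrain and neural crest, was at 0.758, 0.331 and 0.238 CPM and then at 46.6, 26.2 and 20.2 CPM (70.7-fold). Of 25 cadherin and epithelial-mesenchymal transition genes 5 rose and 5 fell at least 2-fold, and 2 fell in the fit of all 18 samples. The E-cadherin repressors Zeb2 and Zeb1 rose 7.74-fold and 2.82-fold, and Snai1 was not called.

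Genes of the integrated stress response, which ATF4 drives when amino acids are short or proteins misfold, fell nearly as a whole: 14 of 20 by at least 2-fold and 5 more by less. Atf4 itself was at 362, 385 and 285 CPM at day 2 and at 177, 180 and 129 CPM at day 3 (2.13-fold lower, adjusted p = 2.5e-06). Trib3, its feedback inhibitor, fell from 71.0 ± 6.0 to 11.3 ± 2.4 CPM, Slc7a11, the cystine transporter, from 4.89 ± 1.77 to 0.302 ± 0.095 CPM, and Psat1 of serine synthesis from 879 ± 104 to 364 ± 8 CPM. Atf3 was the exception (log2 fold change 0.51 ± 0.14, adjusted p = 0.014); it was 0.15 with no replicate block and 0.47 in the fit of all 18 samples.

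Growth and metabolic genes shifted less. Of 30 cell cycle regulators none fell and 3 rose at least 2-fold, while 16 fell by less (29.0% of all genes were called lower). The 16 were 7 without HM1 replicate 2 and 5 in the fit of all 18 samples. Cyclin D1 (Ccnd1) fell from 206 ± 11 to 117 ± 18 CPM and cyclin D2 (Ccnd2) rose from 35.2 ± 14.2 to 91.6 ± 31.3 CPM. The inhibitors Cdkn1c and Cdkn2c rose 2.73-fold and 2.96-fold. Mycn fell from 220 ± 20 to 51.2 ± 8.1 CPM. Of 31 glycolysis and hypoxia genes 5 fell and 4 rose at least 2-fold (2 fell without HM1 replicate 1 and 3 without HM1 replicate 2). Ldha fell 2.07-fold, while the glucose transporter gene Slc2a3 rose from 583 ± 53 to 1258 ± 286 CPM. Of 24 cholesterol synthesis genes 2 rose at least 2-fold (10.7% of all genes did), with Ebp among them (1 rose without line 1A4), and 13 were not called.

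Markers of other cell types that the cultures could hold were also counted. Of 24 tested primitive endoderm genes 12 rose and none fell at least 2-fold, with a median log2 fold change of 1.16; this list holds Foxa2, which neural tissue also uses. Without line 1A4, 1 member fell. Its defining genes were low: Sox7 went from 0.237 ± 0.008 to 4.90 ± 0.80 CPM, Gata6 from 0.982 ± 0.165 to 3.74 ± 0.24 CPM and Gata4 from 2.90 ± 1.20 to 4.63 ± 1.64 CPM, while Afp and Ttr were too low to test. The summed level of its 26 genes was 1403 to 1612 CPM at day 2 and 1902 to 1991 CPM at day 3. Of 19 tested surface ectoderm and neural crest genes 10 rose and 1, Foxd3, fell; Sox10 rose from 1.22 ± 0.45 to 6.85 ± 1.56 CPM and Dlx3 from 0.622 ± 0.076 to 5.58 ± 1.25 CPM, and Krt14 and Trp63 were too low to test. Trophoblast genes gave 2 risers and 2 that fell among 9 (1 riser in the fit of all 18 samples), and Elf5 and Tpbpa were below the filter.

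Of 23 tested genes on the list of feeder fibroblast markers 6 rose and 2 fell at least 2-fold (1 fell without HM1 replicate 1, without line 1A4 and in the fit of all 18 samples), with a median log2 fold change of 0.63. The summed level of the 24 listed genes was 578 to 632 CPM at day 2 and 802 to 926 CPM at day 3. Col1a1 was at 23.1, 37.3 and 25.3 CPM and then at 62.3, 106 and 96.4 CPM. Dcn was at 0.958 and 1.03 CPM and Lum was too low to test, while Thy1 fell from 33.9 ± 1.2 to 4.99 ± 0.55 CPM. The part of other cell types in the changes above was not tested.

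**Figure D5:**
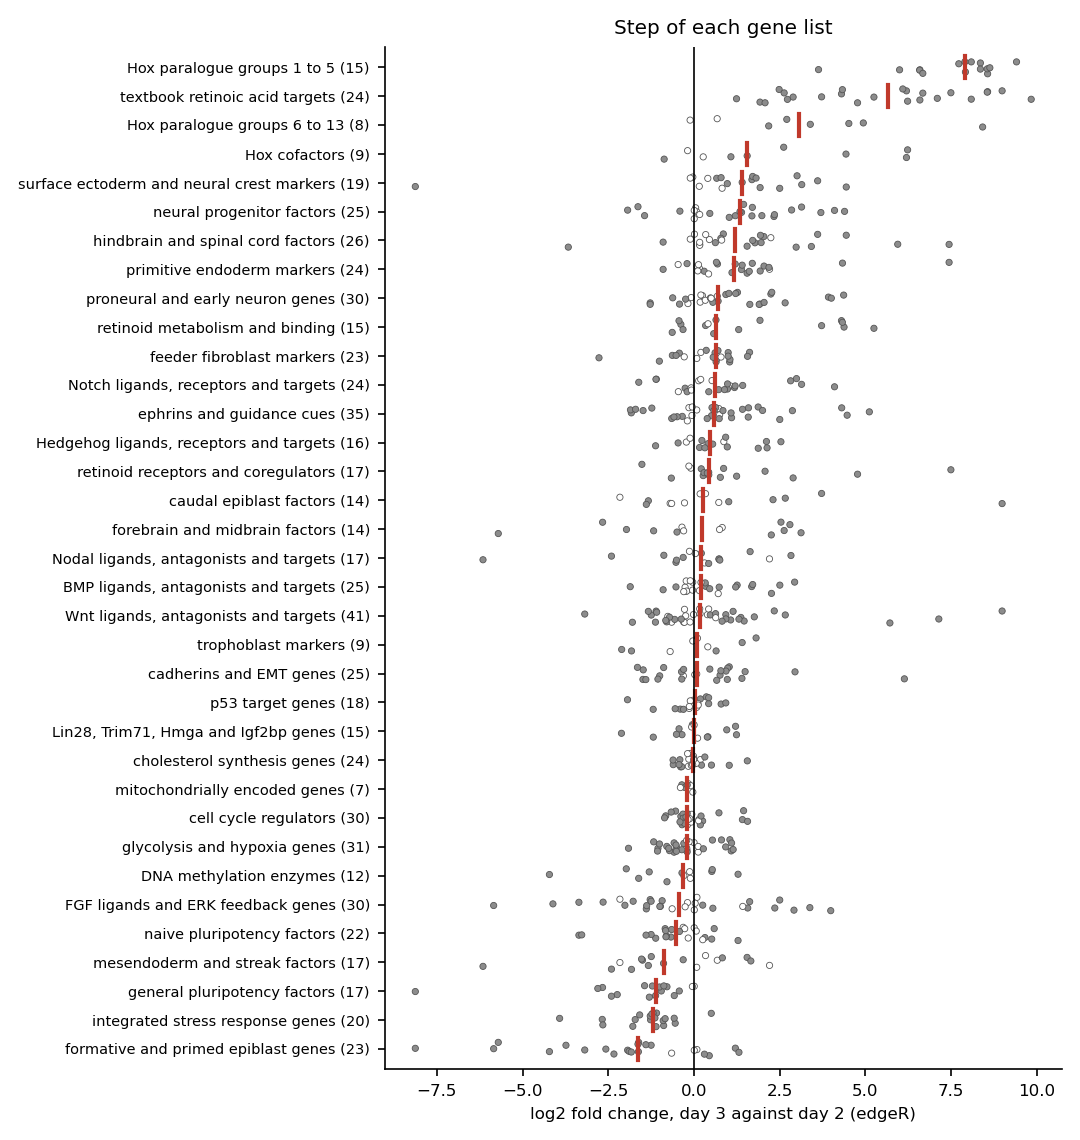
Log2 fold change of each tested member of 35 gene lists, day 3 against day 2, with the number tested after each name; grey points were called, white points were not, red bars are list medians and the black line is the median of all genes. The Hox genes of groups 1 to 5 and the retinoic acid targets lie highest, and the integrated stress response and the formative and primed epiblast genes lowest.

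Over all genes, the names with the largest changes were mostly those above. Where the higher day averaged 5 CPM or more, the 10 with the largest rise included ccdc198, Stra8, Hoxb5, Cdx1, Hoxaas2, Hotairm1, Hoxc5, Hoxb4 and Hoxb6. Of these, ccdc198, which is on none of the lists, had no count at day 2 and was at 39.8, 27.4 and 36.7 CPM at day 3, at least 484-fold higher than a floor of 3 counts a sample. The 10 with the largest fall were Foxd3, Enpp2, Fgf5, Otx2, Platr10, Bcl11a, Bcl11b, Dnmt3b, Fgf15 and Foxi3. Enpp2, which makes the lipid signal lysophosphatidic acid, was at 95.7, 92.5 and 116 CPM and then at 1.16, 1.61 and 0.930 CPM (83.7-fold lower). Bcl11a and Bcl11b, zinc finger repressors, fell by 4.64 and 4.34 on the log2 scale, and the noncoding RNA Platr10 36.2-fold. Foxi3, a forkhead factor, fell from 26.0 ± 1.1 to 1.61 ± 0.24 CPM.

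The same step was compared with that of 3 Nup133-/- lines, which share no sample with it. None of 17678 genes (0%) had a step that differed at an adjusted p below 0.05 (edgeR interaction test with the series as a block; 1274 genes at an unadjusted p below 0.05, smallest adjusted p 0.059). With no replicate block 3 genes were called, and without the knockout line 19, 63 genes were. In simulated data without differences between series the test recovered 7.4% of genes with a 2-fold and 72.4% with a 4-fold difference in step. Differences of the smaller size were thus mostly not detectable. Pou5f1 fell by 2.85 on the log2 scale in the knockout lines and Stra8 rose by 9.07, and the steps of both did not pass the test of a difference (adjusted p = 0.74 each).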

How the data were processed

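Poly(A) RNA was sequenced as stranded TruSeq libraries, per the labels' protocols. The deposited values are raw counts per transcript, 1 file per technical replicate; the submitters' processing notes name bcl2fastq 2.17.1.14, STAR 2.4.0k, SAMtools, HTSeq and mm10. The annotation, the counting mode and the use of strand are not given in the sources used here. Of 110379 transcript identifiers 108309 matched GENCODE M21, which gave symbols and positions of 45407 genes. A read could be counted for several transcripts of a gene, so a gene's count was taken from 1 transcript, that with the most counts in all 72 files. The 4 technical files of a sample, whose chi-square per degree of freedom was 1.01 to 1.02, were summed. The test was that of edgeR 4.0.16 in R 4.3.3 (filterByExpr, TMM, quasi-likelihood, Benjamini-Hochberg) with the series as a block and 2 residual degrees of freedom; the knockout comparison used the 12 samples of both genotypes at day 2 and day 3. The series pair the days because same-numbered samples carry the same line and biological replicate in the labels, and same-series deviations correlated at 0.15, 0.34 and 0.41, while those between the HM1 replicates correlated at 0.16 and 0.13, about as much as within HM1 replicate 1. On simulated data 85% of 2-fold and 100% of 4-fold steps were recovered among 16718 genes, with 5 false calls. The simulated counts had no difference between series, a spread set by the trend over genes, and 200 changed genes. They therefore do not give the rate of false or missed calls in the real samples. Gene lists, the comparison and the genes named (34 fixed genes, the 10 largest changes in each direction and up to 4 called members per list, with any in the minority direction) were chosen with earlier results of these data known; other members are named to complete a count. Alternatives were DESeq2 1.42.0, limma-voom (limma 3.58.1), other scaling, filters, transcript choices, sample sets, thinned depth and leaving out each series. Some genes counted in the lists are not reported here by name.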

Additional observations from a re-analysis of the deposited data

Results flagged for a closer look

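In 3 of the genes named by rule the step in both HM1 series had one sign and that in line 1A4 the other. The steps in 1A4 were so small that these genes were nearly level there, and this difference was not tested. Nanog had a log2 step of -0.80 and -0.21 in HM1 and of 0.08 in 1A4. Rspo3 had -1.16 and -1.06 in HM1 and 0.03 in 1A4, and Tfcp2l1 had 0.49 and 0.50 in HM1 and -0.02 in 1A4. Rspo3 and Tfcp2l1 were called over the 3 series (adjusted p = 0.049 and 0.034, edgeR) but rest on the HM1 series in direction. Rspo3 lost its call in 7 of 14 alternatives, with an adjusted p of 0.25 without HM1 replicate 1 or 2 and of 0.33 in the fit of all 18 samples. Tfcp2l1 lost it in 5 of 15, with 0.13 and 0.23 without HM1 replicate 1 or 2 and 0.43 in the fit of all 18 samples.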

How the results depend on the processing

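The number of genes called depended on which samples set the spread. In the fit of all 18 samples 3988 were called against 9833, 2291 higher and 1697 lower; 3850 of them were called in both fits, all with the same sign. Leaving out 1 series gave 6442 to 10681 genes called and 3082 to 5262 lower, the fewest without HM1 replicate 2. With no replicate block 8517 were called, and the calls at 2-fold stayed within 1.5 times of 2808 under every alternative. For the difference in step between genotypes, no replicate block gave 3 genes, and leaving out 1 sample series gave 0 to 63, the most without knockout line 19. Genes that rose at least 2-fold with a direct repeat numbered 3, and 1 when AGGTCA or AGTTCA alone was searched and 8 with spacings 1, 2 and 5 together. The cause of these changes was not tested. Of 235 called genes named by rule, 155 kept the call under every alternative that measured them and none reversed; 69 lost it in the fit of all 18 samples, 33 without HM1 replicate 2 and 15 with no replicate block. The median log2 fold change of 6 gene lists changed sign under an alternative. The largest move of a list median was 2.045, for the anterior brain factors with the filter of at least 1 CPM in 3 samples. Levels under about 0.1 CPM rest on a few counts.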

Other observations

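Gene families picked by symbol after results were known gave further counts at day 3. Of 39 tested collagen genes 23 rose and 2 fell at least 2-fold, with a median log2 fold change of 1.20; Col2a1 had the largest change among them. Of 19 Sox genes 10 rose and 1, Sox14, fell. All 6 tested protocadherin beta cluster genes rose at least 2-fold, with day 2 means under 1 CPM; other annotated genes overlap them on the same strand, so their counts are uncertain. Potassium channel genes went both ways, with 24 of 65 that rose and 12 that fell at least 2-fold. Among all genes tested 10.7% rose and 5.87% fell by that much, the background for each of these counts.

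Some families of general machinery had members called lower by small amounts. Of 35 aminoacyl-tRNA synthetases, several of which ATF4 is known to induce, 27 were called lower and none higher (29.0% of all genes were called lower), with Aars, Tars and Cars lower by at least 2-fold. Of 20 nucleoporin genes 17 were called lower and 1 higher, with a median log2 fold change of -0.32. Of 47 proteasome subunit genes 35 were called lower and none higher. Among 88 genes with an Rpl or Rps symbol 23 were called lower and 1 higher, a share below that of all genes. These are mostly ribosomal protein genes, but Rps4l and Rpl6l among them are annotated as pseudogenes. The counts of these families were not recomputed under the alternatives.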
